A study of Mus musculus with 2 samples.

Results

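The distal end of mouse chromosome 2 carries a dense cluster of zinc finger genes. Here it is described by the 50 protein-coding genes of the deposited table that start between 174 and 178.5 Mb on that chromosome, out of 21542 genes in all. The genes were chosen by position and annotated type. The region was proposed with the reads of these 2 libraries already known, so counts over it are descriptions. The cells are MIN6, an insulin-secreting tumour line labelled C57BL/6 that stands in for the beta cell. They were grown with 25 mM glucose and 15% serum, and each 3.5 cm dish received 4.8 ul of Lipofectamine 2000 with 4 ug of plasmid. RNA was sequenced in 1 library from cells given a control vector and 1 from cells given a vector that expresses the glucocorticoid receptor (GR). The sources used here do not give the form of the receptor cDNA, the time to harvest or any added hormone. With 1 library per group no difference below has a replicate check.

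C2H2 zinc finger proteins bind DNA through repeated fingers, each a short fold held together by a zinc ion between a pair of cysteines and a pair of histidines. Many also carry a KRAB box, which recruits the co-repressor Trim28 and, through it, enzymes that place repressive histone methylation. Genes of this kind arise by tandem duplication, so neighbours can be close to identical, and in mammals many of them silence transposable elements. A read that falls in a stretch common to several copies cannot be assigned to 1 of them by its sequence.

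The control library totalled 18537326 reads and the GR library 18525668. Nr3c1, the gene of the receptor and the targeted gene, had 2645 and 5202 reads (fold 1.97, 95% interval 1.88 to 2.07). The 8 beta cell markers were all read, with sums of 813054 and 766538 reads. Of 4 exocrine markers 1 is in the table, with 7 and 13 reads, and the 2 immune markers summed to 26 and 22. The alpha, delta and PP cell markers in the table summed to 629 and 737 reads, and those of fibroblasts and endothelium to 63 and 73.

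Of the 50 genes, 38 follow each other with no other protein-coding gene of the table between them, in a block from 175010241 to 178078476, 18 on the plus and 20 on the minus strand. In 32 of them the gene was counted as a zinc finger gene, 31 because an annotated coding sequence holds at least 3 fingers (cysteine, 2 to 4 residues, cysteine, 12 residues, histidine, 3 to 5 residues, histidine) and Zfp972 by its symbol. The 31 had 3 to 25 fingers, with a median of 13. Gm14295 has the most. The deposited table files the same 32 under the C2H2 family and none of the other 18 genes. The remaining 6 genes of the block (Gm14440, Gm14288, 2210418O10Rik, Gm14408, Gm14296 and Gm14327) are annotated with 0 or 1 finger. They were assigned to the block because they carry a run of the residues L, Y, K, any residue, V and M, part of the KRAB A box. The same run was found in 31 of the 32 zinc finger genes, all except Gm14409. It was chosen after the sequences were seen, since the first run searched was found in 0 members. Those 12 lie on both sides of the block, 8 before it and 4 after it.

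The sequence that the copies share is shown first, because reads that fall in it match several members. The 31-base run found in the most coding sequences of the block is given for Gm14419. There it lies in exon 4 of 4 of the transcript, on the plus strand of GRCm38 at chr2:177011399-177011429:
common run: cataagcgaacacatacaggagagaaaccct
It spans the end of 1 finger and the linker that joins it to the next. It was found in 33 coding sequences of the 38 genes and in transcripts of 35. Gm14419 holds 6 copies of it. In the whole GENCODE M21 annotation 54 genes hold it, 19 of them outside the 38.

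Extending the run to 84 bases, the length of 1 finger with its linker, shows how little separates some members. The unit of Gm14419 is set beside its closest ungapped match in 9 other genes of the block, with bases that differ from Gm14419 in capitals. All 10 stretches lie in coding sequence, in exon 4 of 4 of the transcript.
Gm14419: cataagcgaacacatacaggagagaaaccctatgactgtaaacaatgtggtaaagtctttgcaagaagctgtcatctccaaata
Gm2004: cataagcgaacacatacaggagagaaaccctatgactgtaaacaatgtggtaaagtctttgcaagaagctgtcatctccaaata
Gm14295: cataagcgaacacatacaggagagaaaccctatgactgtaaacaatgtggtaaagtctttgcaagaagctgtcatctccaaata
Gm14410: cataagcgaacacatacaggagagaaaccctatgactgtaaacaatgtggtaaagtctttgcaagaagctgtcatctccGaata
Gm14322: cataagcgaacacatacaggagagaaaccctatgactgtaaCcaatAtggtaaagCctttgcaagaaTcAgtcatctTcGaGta
Gm14418: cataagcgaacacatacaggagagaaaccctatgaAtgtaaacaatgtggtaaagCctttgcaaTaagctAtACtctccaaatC
Zfp968: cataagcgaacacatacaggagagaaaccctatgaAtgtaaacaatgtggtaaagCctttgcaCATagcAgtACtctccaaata
Zfp969: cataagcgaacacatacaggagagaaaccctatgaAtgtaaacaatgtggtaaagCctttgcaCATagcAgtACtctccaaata
Zfp931: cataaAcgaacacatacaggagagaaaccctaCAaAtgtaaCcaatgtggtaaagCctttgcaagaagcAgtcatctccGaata
Gm14443: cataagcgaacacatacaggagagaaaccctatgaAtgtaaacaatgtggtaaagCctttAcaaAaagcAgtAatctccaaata

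In GRCm38 the unit lies at chr2:177011399-177011482 (plus) in Gm14419, chr2:176142896-176142979 (minus) in Gm2004 and chr2:176809079-176809162 (plus) in Gm14295, with 0 differences among these 3. Gm14410 (chr2:177194026-177194109, minus) differs at 1 base. Gm14322 (chr2:177769756-177769839, plus) differs at 8, Gm14418 (chr2:177387253-177387336, minus) at 7, and Zfp931 (chr2:178067896-178067979, minus) at 8. Zfp968 (chr2:175383087-175383170, plus) and Zfp969 (chr2:175692990-175693073, minus) carry the same 84 bases as each other. Gm14443 (chr2:175169452-175169535, minus) differs at 6. Gm14322 and Gm14443 each hold 3 equally close stretches and Zfp931 holds 2, of which the first along the coding sequence is given. Over the 32 zinc finger genes the closest match had 0 to 15 differences, with a median of 5, and 10 genes, Gm14419 included, held the unit exactly.

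Over whole transcripts the picture was graded. For each gene of the block, every run of 31 bases (31-mer) was looked up in all other annotated genes. The share found there ran from 33.6% to 100% across the 38, with a median of 90.8%. All 38 lay above 25%. Zfp genes elsewhere in the genome had a median of 3.75% over 348 genes. In 5 of the 38 the whole set of 31-mers lies within 1 other gene of the block, and in 14 at least 80% does. Gm14443 and Zfp931 stood at the other end, with 7.64% and 18.2% of their 31-mers in their closest fellow member. Of the 12 other genes, Gm20721 alone passed 25%. It lies antisense to Gnas and shares 90.9% of its 31-mers with it.

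Summed over the cluster, the difference between the libraries was within counting error. The 32 zinc finger genes had 1885 control reads and 1841 GR reads, a fold of 0.979 (exact 95% interval 0.918 to 1.05, which like all intervals here covers counting error only). Without Gm14410, left out after its values were seen because its reads differed by the largest number, the fold was 1.02. All 38 genes of the block had 2021 and 1947 reads (fold 0.966, 0.907 to 1.03), about 0.0109% and 0.0105% of the libraries. The 6 genes with fewer than 3 fingers had 136 and 106 (fold 0.782, 0.601 to 1.02). The 12 other genes had 16461 and 16142 (fold 0.983, 0.962 to 1.01). All 50 together had 18482 and 18089 reads. In bulk RNA, fewer cells of a type and less RNA per cell cannot be told apart.

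In the block, 19 genes had more reads with the GR vector, 18 had fewer and 1 had the same number. The 19 had 272 more reads in all and the 18 had 346 fewer, which leaves a net difference of -74 reads. The net difference was smaller than the differences of either sign. Genes were split by the sign of their own difference, so counting error alone also puts reads on both sides. Its part here was not tested.

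**Figure D1:**
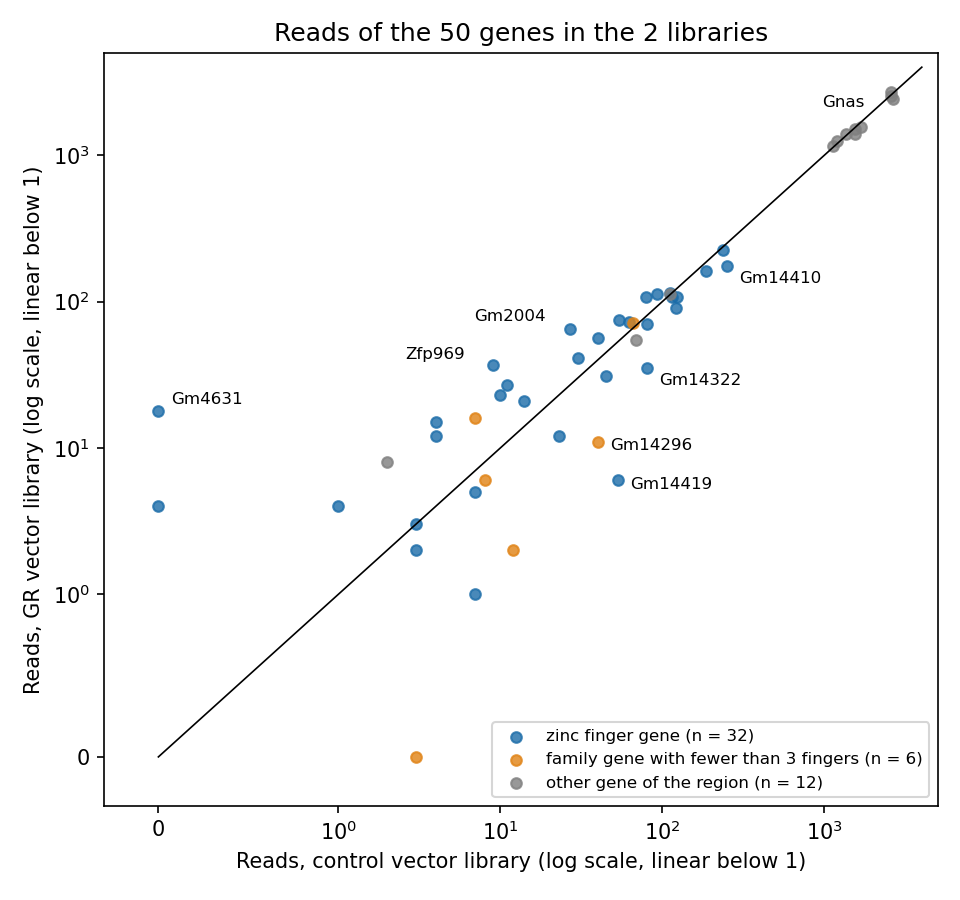
Reads of each of the 50 genes with the control vector (horizontal) and the GR vector (vertical), on log axes that are linear below 1, with the line of equal reads. The 10 other genes with over 100 reads lie close to the line, while Gm14419 (53 and 6 reads), Gm14296 (40 and 11), Gm2004 (27 and 65) and Zfp969 (9 and 37) lie away from it.

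Few reads were counted in the cluster, and any reads left out because they match several genes would lower these values. Mean reads ran from 1.5 to 232 over the 38 genes, with a median of 27.5, and 21 of them reached a mean of 20 reads. Levels were compared between genes as RPKM, the recovered reads scaled to deposited gene length and library size. On this scale Gm14325 was highest, at 6.24 (control) and 5.42 (GR), followed by Gm14410 with 5.62 and 3.92. Next in the control library came Gm14322 with 3.44 and Zfp971 with 3.11, and in the GR library Zfp972 with 3.50 and Zfp970 with 2.81. The order below the first 2 genes thus changed between the libraries, and without replicates neighbours in it cannot be separated. Atp5e, outside the block, stood at 79.2 and 78.6.

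Single genes of the block differed more. Requiring 20 reads on average, 5 of 21 genes were past a 1.5-fold difference, 2 higher and 3 lower with the GR vector (23.8%). Over all 13638 genes with that minimum the share was 2.81%, with 1.23% higher and 1.58% lower. Among 4203 genes of 20 to 250 reads, the range of the block, it was 8.87% (3.85% higher and 5.02% lower). These shares come from the same 2 libraries as the members' own values. For the 5 genes the 95% interval of the fold also left out 1, which 5.19% of the 4203 genes showed together with a 1.5-fold difference. In 8 of the 21 genes the interval left out 1 at any fold, against 10.1% of the 4203. The median absolute log2 fold was 0.45 over the 21 genes and 0.20 over the 4203, while the median signed log2 fold was -0.06 and -0.01. The other 17 genes of the block, those under 20 reads, are left out of these counts. The count depended on the minimum, which was varied over all 50 genes of the region and not over the block alone. At 20 reads on average 5 of these 32 genes were past 1.5-fold, and at 10 reads 10 of 37 (6.19% of all genes). At 50 reads 1 of 25 was, Gm14322 (0.866% of all genes). The 32 include 11 genes outside the block, 0 of them past 1.5-fold, so these counts do not compare directly with the 5 of 21.

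Gm14419 (ENSMUSG00000078875, chromosome 2, 177000956 to 177012787, plus strand), a predicted gene with 17 fingers, had 53 control reads and 6 GR reads. It was the lowest of the cluster by fold among genes with at least 20 reads, at 0.114 (95% interval 0.0399 to 0.264). It was also the 1 member past the authors' adjusted p, at 0.0307 in the authors' deposited table, a threshold that 0.0186% of all genes passed. Nr3c1, the targeted gene, did not pass that threshold (fold 1.97). The p-value of Gm14419 rests on a spread that was preset and not measured between replicates. Gm2004 (ENSMUSG00000095648, 176141591 to 176149825, minus strand), also with 17 annotated fingers, went the other way, from 27 to 65 reads (fold 2.41, 1.52 to 3.93). All of its 31-mers (100%) also occur in Gm14419, which starts 859365 bases away. Added together, Gm14419 and Gm2004 had 80 and 71 reads, a fold of 0.890 (0.637 to 1.24). Gm14295, the member that holds most of Gm14419 (81.2% of its 31-mers), had 122 and 91 reads (fold 0.748, 0.564 to 0.989). All 3 genes together had 202 and 162 reads (fold 0.804, 0.650 to 0.994), an interval that left out 1.

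In some other close pairs the sum still differed. In others it did not: Gm14440, whose 31-mers all occur in Gm14288, summed with it to 69 and 71 reads (fold 1.03, 0.730 to 1.46). Gm14322 (177759288 to 177770472, plus strand), with 8 fingers, had 80 and 35 reads, a fold of 0.439 (0.286 to 0.660). Gm14418, which holds 90.3% of its 31-mers, had 62 and 73 reads. The sum was 142 and 108 (fold 0.763, 0.588 to 0.987), so the interval of the pair still left out 1. For Gm14296 and 2210418O10Rik, each with 1 annotated finger, the reads were 40 and 11 for the former and 7 and 16 for the latter. All 31-mers of 2210418O10Rik occur in Gm14296. Their sum was 47 and 27 (fold 0.576, 0.345 to 0.944).

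Zfp969 (ENSMUSG00000095545, 175692223 to 175703646, minus strand), with 11 fingers, had 9 and 37 reads, a fold of 4.12 (1.95 to 9.71), the highest among members with at least 20 reads. Its 31-mers lie wholly within Zfp968, which had 3 and 2 reads, and 99.8% of them within Zfp966, which had 7 and 1. Zfp969 with Zfp968 came to 12 and 39 reads and with Zfp966 to 16 and 38, so both sums stayed more than 2-fold apart (folds 3.26 and 2.38). Gm4631 (175321955 to 175338197, minus strand) had 0 control reads and 18 GR reads, which is at least 6.02-fold higher against a floor of 3 reads. The lower limit of its exact 95% interval was 4.41, and with 1 read added to each library the fold was 19.1. The authors' deposited table gives it an adjusted p of 0.232. Of the 31-mers of Gm11007, 99.8% lie in Gm4631, and Gm11007 had 23 and 12 reads, so that both together came to 23 and 30. Gm4724 and Gm14308 hold 100% of the 31-mers of Gm11007. With Gm4724 it came to 26 and 15 (fold 0.579) and with Gm14308 to 23 and 16 (fold 0.698). Of the 31-mers of Gm4631 itself, 33.0% lie in its closest member.

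**Figure D2:**
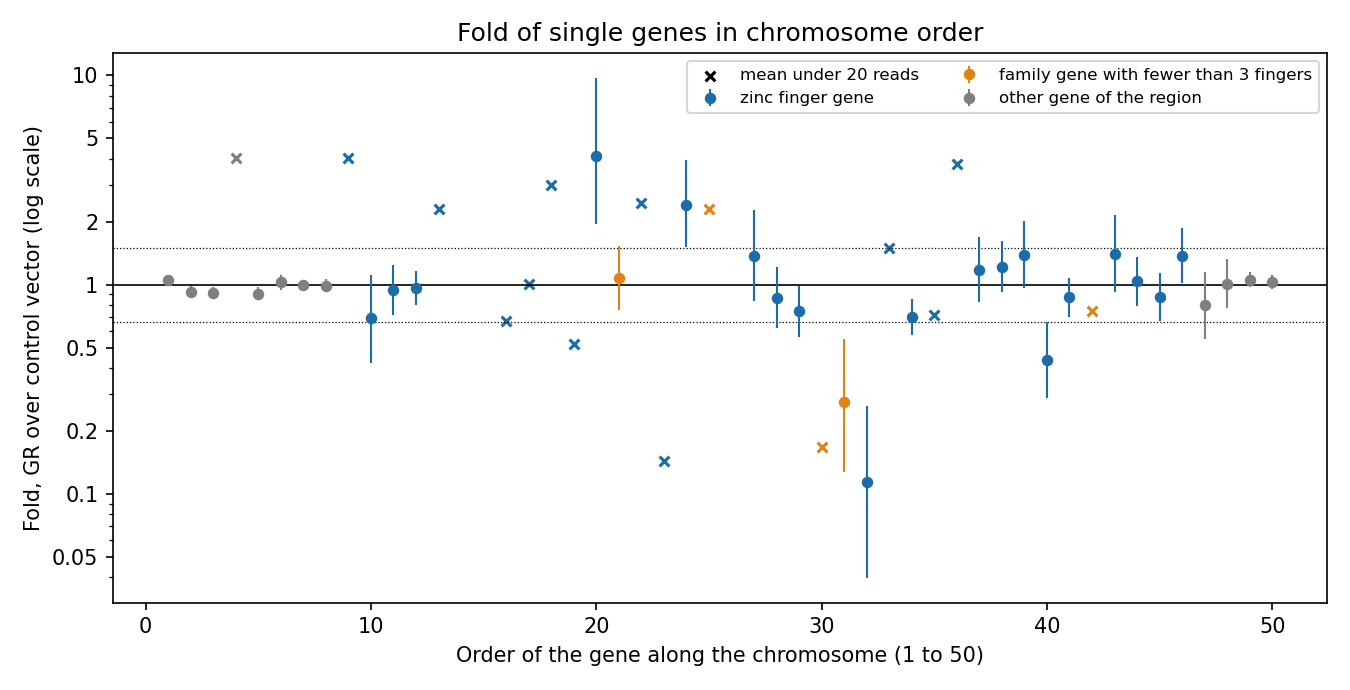
Fold of each gene (GR over control vector, log scale) in the order of the genes along the chromosome, with exact 95% counting intervals for genes of 20 or more reads on average and crosses for those below; dotted lines mark 1.5-fold either way, and the 3 genes with 0 reads in 1 library are not drawn. The 11 other genes of 20 or more reads, at both ends, lie between 0.799 and 1.06, and the genes of the block between them reach from 0.114 to 4.12.

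The remaining well-read zinc finger genes kept closer to their control level. Gm14410, with 9 fingers, had the second most reads by the mean of both libraries, 250 and 174 (fold 0.698, 0.572 to 0.850). Its interval left out 1 although it stayed inside 1.5-fold. Gm14308, which holds 85.1% of its 31-mers, had 0 and 4 reads. Gm14443, the most read gene of the block by that mean and the one with the smallest share of 31-mers in other genes, had 237 and 227 reads (fold 0.961, 0.797 to 1.16). Gm14325 had 187 and 162 reads, Zfp971 124 and 108, Gm14399 114 and 107, and Gm14326 111 and 115. All 4 intervals included 1. Zfp970 had 93 and 113 reads, and Gm14305 had 81 and 70 (folds 1.22 and 0.867). Zfp931, the last gene of the block, had 79 and 108 reads (fold 1.37, 1.02 to 1.86). Zfp972 had 40 and 56 reads, Gm14403 54 and 75, and Zfp973 30 and 41 (folds 1.40, 1.39 and 1.37). Gm14393 had a fold of 0.691, and the intervals of these 4 included 1.

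Of the sparsely read genes, Gm14412 had 4 and 15 reads (fold 3.76, 1.20 to 15.6) and Gm14408 12 and 2 (fold 0.167, 0.0182 to 0.751). Both are in the authors' second deposited list, a selection by unadjusted p (under 0.05) and by log2 fold change (over 1 in size). That list has 233 genes, or 1.08% of those tested (0.534% higher and 0.548% lower), and 8 of them are members of the cluster. Higher were Gm4631, Zfp969, Gm2004 and Gm14412, and lower were Gm14419, Gm14296, Gm14322 and Gm14408. These 8 make up 3.43% of the list and 21.1% of the block. Some members also overlap on the chromosome. Gm14393 (45 and 31 reads) runs over the pseudogene Gm14439 (47 and 33) on the opposite strand, Zfp973 over Gm14305 on the same strand, and Gm14327 over Zfp972 on the opposite one. These overlaps are between whole gene spans, introns included, and the overlap of exons was not computed. The sources used here do not give strand handling, so reads in an overlap of opposite strands cannot be told apart here. For Zfp973 and Gm14305, on the same strand, strand would not separate such reads.

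Further members of the block had under 20 reads on average. Gm6710 had 11 and 27 reads (fold 2.46, 1.18 to 5.50) and Gm14391, which holds 85.0% of the 31-mers of Gm6710, had 10 and 23 (fold 2.31, 1.06 to 5.43). Here the close copies differed in the same direction. Zfp965 had 4 and 12 reads and Gm14401 had 14 and 21, with intervals that included 1. Gm14444, Gm4724, Gm14409 and Gm14327 had 8 or fewer reads in each library. Together with Gm4631 and Gm14308, Gm14440 (3 and 0 reads) was among the 3 members at 0 in 1 library, a state found in 7.42% of all genes.

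The members past 1.5-fold were set beside their shared sequence. Of the 8 genes of the block that had at least 20 reads and at least 80% of their 31-mers in 1 other member, 4 were past 1.5-fold (Gm14419, Gm2004, Zfp969 and Gm14322). Of the 13 with less, 1 was, Gm14296, which holds all 31-mers of 2210418O10Rik but is itself the longer of that pair. Counting 31-mers shared with any annotated gene, 12 genes of the block with at least 20 reads reached 80%, and 4 of these were past 1.5-fold. Outside the region, among genes of 20 to 250 reads, 16.9% of 295 genes with at least 80% of their 31-mers shared with any gene were past 1.5-fold. The share was 11.6% of 947 genes with at least 25% shared and 7.94% of 3225 genes with less. The sources used here do not say how reads matching several genes were assigned, and the part of that step in these differences was not tested.

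**Figure D3:**
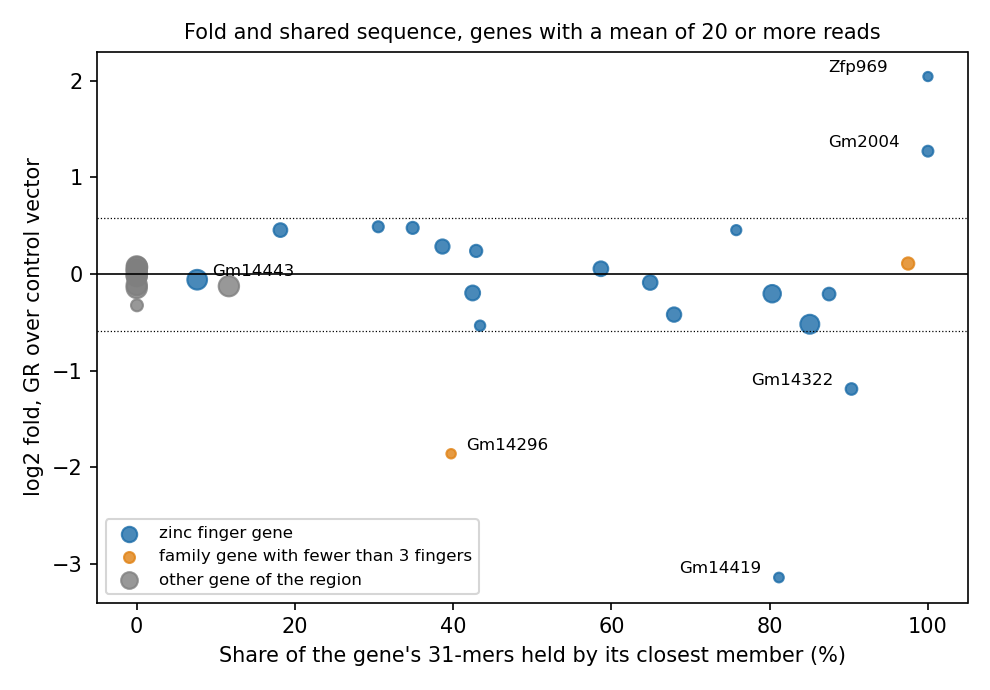
Log2 fold (GR over control vector) against the share of the gene's 31-mers held by the closest other member, for members of 20 or more reads on average, with larger points for more reads and dotted lines at 1.5-fold. Gm14419, Gm2004, Zfp969 and Gm14322 lie at 81.2% or more, and Gm14296 is at 39.7%.

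Reads were then summed over genes that share sequence. When genes were linked wherever 60% or more of the 31-mers of 1 lay in the other, a limit chosen after the values were seen, the 38 genes fell into 6 families and 10 single genes. The largest family, 11 genes with Gm14410, Gm14295, Gm14419 and Gm2004 among them, had 580 and 493 reads (fold 0.852, 0.754 to 0.963). Within it 5 genes had 89 more reads in all and 5 had 176 fewer. A family of 8 with Zfp969 and Gm14288 (66 and 71 reads) had 130 and 170 (fold 1.31, 1.04 to 1.66). Gm14325, Gm14326 and Gm14399 summed to 412 and 384 (fold 0.935, 0.811 to 1.08), and Zfp972 with Gm14408 to 52 and 58 (fold 1.12). Counting families and single genes with at least 20 reads, 1 of 12 was past 1.5-fold, the family of Gm14296 and 2210418O10Rik. With a limit of 50% it was 1 of 11, and with 80% it was 4 of 17. Over all single genes of the table the share was 2.81% with at least 20 reads and 0.106% with more than 250. A sum holds more reads than its single genes, so these counts are not on the same footing as those of single genes. The intervals of 4 of the 6 families linked at 60% left out 1, against 17.5% of all single genes with at least 20 reads. These shares too are not on the same footing.

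**Figure D4:**
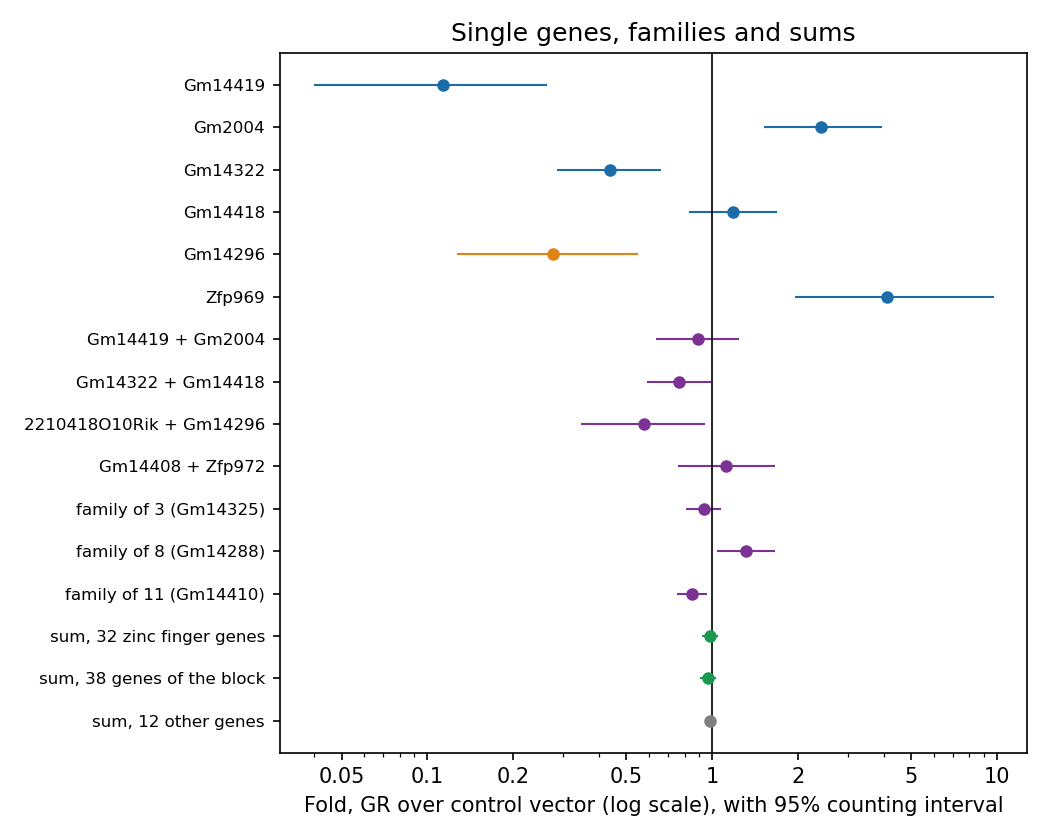
Fold (GR over control vector, log scale) with exact 95% counting intervals for 6 single genes (blue, and orange for Gm14296 with fewer than 3 fingers), sums over genes that share sequence (purple), sums over the cluster (green) and the sum over the other genes of the region (grey). Single genes reach from 0.114 to 4.12, the lowest and highest folds of the block with a mean of at least 20 reads. Families linked at 60%, a limit chosen after the values were seen, reach from 0.576 to 1.31. Linked at 50% the range of families was the same. Linked at 80% it was wider, from 0.576 to 2.39 (Gm14391 with Gm6710, 21 and 50 reads). The cluster sums lie at 0.979 and 0.966.

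Pseudogenes and noncoding genes within the block were few in reads. The block contains 15 rows that are not protein coding (8 unprocessed pseudogenes, 6 processed pseudogenes and 1 lincRNA), with 146 and 138 reads in all (fold 0.948, 0.746 to 1.20). Gm14421, an unprocessed pseudogene with 91.6% of its 31-mers shared, had 25 and 12 reads, and Gm14407 had 4 and 13. With these rows the block summed to 2167 and 2085 reads (fold 0.965, 0.908 to 1.03).

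The genes around the block share little sequence with it, and 10 of the 12 had over 100 reads on average. Of the 11 with at least 20 reads, 0 were past 1.5-fold, and over all genes of the table with more than 250 reads the share was 0.106%. Gnas, which encodes the stimulatory G protein alpha subunit that couples receptors to adenylyl cyclase, had 2645 and 2419 reads (fold 0.917, 0.868 to 0.970). Nelfcd, a subunit of the negative elongation factor complex that pauses RNA polymerase II, had 1542 and 1392 (fold 0.905, 0.841 to 0.974). Npepl1, an aminopeptidase-like gene, had 1689 and 1557 (fold 0.925, 0.862 to 0.991). These 3 intervals left out 1, so this held for 27.3% of the 11 genes, against 17.5% of all genes with at least 20 reads. Stx16, a syntaxin of vesicle traffic to the Golgi, had 2576 and 2701, and Atp5e, the epsilon subunit of ATP synthase, 2582 and 2553. Ctsz, the lysosomal protease cathepsin Z, had 1136 and 1162 reads, and Prelid3b 1548 and 1522. After the block, Ppp1r3d, a glycogen-targeting subunit of protein phosphatase 1, had 1192 and 1256, Fam217b 1369 and 1405, and Sycp2, of the synaptonemal complex, 111 and 112. Phactr3 had 69 and 55 reads and Gm20721 had 2 and 8. Just outside the limits of the region, Vapb had 5829 and 5879 reads and Cdh4 4719 and 4798, with folds of 1.01 and 1.02.

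The block was set beside Zfp genes from the rest of the genome. Of 348 measured Zfp genes outside the region, 135 had 20 to 250 reads. In these, 8 (5.93%) were past 1.5-fold and 0 (0.0%) past 2-fold. All 5 genes of the block past 1.5-fold were also past 2-fold, which 1.67% of the 4203 genes of that read range were. The summed reads of the 348 genes were 180404 and 183011 (fold 1.02). No test of the difference between the 2 sets was made, since there is 1 library per vector.

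**Figure D5:**
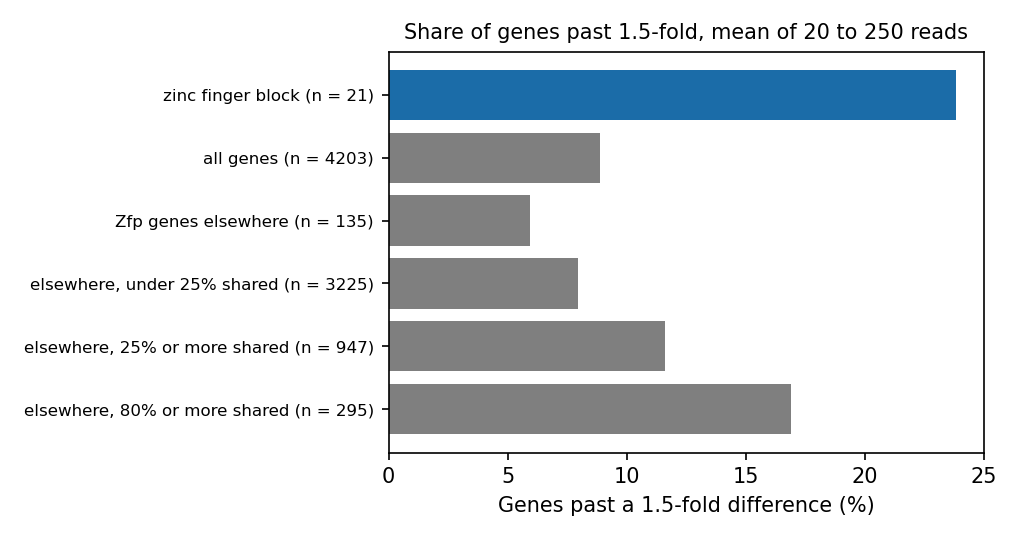
Share of genes past a 1.5-fold difference either way, for genes with a mean of 20 to 250 reads in the block, in the whole table, among Zfp genes elsewhere and among genes outside the region grouped by the share of their 31-mers found in another gene. The block stands at 23.8% of 21 genes, beside 16.9% of 295 genes with 80% or more shared and 5.93% of 135 Zfp genes. Of the 21 genes, 12 reach 80% shared, so the sets are unlike, and the differences between them were not tested.

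The genes listed here as partners of KRAB zinc finger proteins were, where measured, well read in both libraries. Of a list of 32 co-repressors, chromatin-modifying enzymes, chromatin readers and related genes, 31 were measured, all but Zfp57. The means of the 31 ran from 157 to 12770 reads. Past 1.5-fold were 0 of them, in either direction, and 18 had more reads with the GR vector and 13 fewer. Their median log2 fold was 0.03, beside 0.0034 over all genes with at least 20 reads. In 10 of them (32.3%) the interval left out 1, against 17.5% of all genes with at least 20 reads and 19.6% of the 10253 genes in the read range of the list. Of those 10253 genes, 0.156% were past 1.5-fold. Chd4, the motor of the NuRD complex, had 12699 and 12840 reads, and Dnmt1, the maintenance DNA methyltransferase, 9506 and 9487. Suv39h1, a histone H3 lysine 9 methyltransferase, had 843 and 751 (fold 0.893, 0.809 to 0.987). Fam208a, of the silencing complex HUSH, had 1000 and 1113 (fold 1.12, 1.02 to 1.22). Trim28 itself, named here for its role, had 8396 and 8175 reads (fold 0.976, 0.947 to 1.01).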

How the data were processed

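RNA sequencing compared 1 control vector and 1 GR vector library. The authors deposited a normalized signal per gene, counts scaled by library, whose values are whole multiples of 1 step per library (100% within 0.05 reads), and whole reads were recovered by dividing by it. They also deposited a log2 fold change with an unadjusted and an adjusted p-value. DESeq2 1.10.1 is named in the submitters' processing notes. An exact test (edgeR 4.0.16, dispersion preset to 0.04) of the recovered reads called 4 genes and differed from the deposited p-values by at most 4.45e-08. The sources used here do not give the aligner, the build or the handling of reads with several matches.

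Folds are recovered reads scaled by TMM (factors 1.00 and 0.999), with exact Clopper-Pearson 95% intervals. The edgeR test was tested on simulated data. All 50 members matched GENCODE M21 (GRCm38) with identical coordinates. Its transcripts gave fingers and 31-mers, taken over all transcripts of a gene. R 4.3.3, Python 3.11.15 and DESeq2 1.42.0 (size factors) were used.

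Members, lists and limits were chosen with earlier results of these data known. Named are members past the authors' adjusted p or in their second list, the 10 most read zinc finger genes, the 6 highest and 6 lowest by fold with a mean of at least 20 reads, other genes with at least 100 reads and closest copies. From the partner list the 2 most read and the 2 largest folds are named. Trim28 and the sparsely read copies and pseudogenes were added after their values were seen. No column belonged to another sample (0). Alternatives covered scaling, read minimum, fold limit, region and dispersion.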

Additional observations from a re-analysis of the deposited data

How the results depend on the processing

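The summed reads of the 32 zinc finger genes kept a fold within the interval of the reported value under the 8 alternatives run, among them other scalings and a narrower region, and 2 of these (all genes of the block, and Gm14410 left out) were chosen after seeing the data. The folds ran from 0.945 to 1.02, and without Gm14410 the value crossed 1. The sum over all 50 genes kept it under 3. The count of members past 1.5-fold depended on the read minimum: it was 5 of 32 with a mean of at least 20 reads (2.81% of all genes), 10 of 37 with 10 (6.19%), 1 of 25 with 50 (0.866%) and 19 of 50 with no minimum (25.6%). It stayed at 5 with a limit of 2-fold (1.67% of all genes of 20 to 250 reads) and with both other scalings. It was also 5 when the interval had to leave out 1 as well. The interval alone left out 1 in 11 of 32 members, against 17.5% of all genes with at least 20 reads. Families and single genes past 1.5-fold numbered 1 of 12 when linked at 60%, 1 of 11 at 50% and 4 of 17 at 80%. Over all single genes with at least 20 reads the share was 2.81%, and sums hold more reads than single genes. The 1 member past the authors' adjusted p became 8 in the authors' second deposited list and 0 when the edgeR test assumed a dispersion of 0.16, which called 0 of all 21542 genes. With 1 read added to each library the fold of Gm4631, given above as at least 6.02 against a floor of 3 reads, was 19.1. Low reads limit the precision of single members. No paired analysis was possible because each group has 1 library, and for the same reason no replicate could be left out.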
